A study of Oryza sativa with 8 samples.

Results

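Two-week-old rice seedlings of the salt-tolerant indica line Pokkali were compared with seedlings of the japonica line Nipponbare before any salt was given. The comparison rested on 4 of the 8 arrays of the series, chosen by their titles: 2 arrays of Pokkali at 0 h and 2 of Nipponbare at 0 h. Whole seedlings, 14 days old, had been raised from imbibed seed in a greenhouse under natural light and temperature. Each array held the RNA of 1 of 2 biological replicates of a line. The remaining 4 arrays held the same lines after 8 h in 250 mM NaCl. They served as a second look at the line difference, on arrays that the 0 h comparison does not share, and they entered the estimate of the spread.

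Nipponbare is the line whose genome was the first rice reference, and Pokkali is a tall traditional line from coastal saline fields. Japonica and indica rice diverged long before cultivation spread them, and they differ in gene content as well as in sequence. Pokkali is known as the donor of Saltol, a locus on chromosome 1 that lowers the ratio of sodium to potassium in the shoot. The sodium transporter HKT1;5, which takes sodium back out of the xylem sap, is the gene usually named for it. Plants limit salt damage by keeping sodium out of the shoot, by storing it in vacuoles and by making protective proteins under the control of the hormone abscisic acid.

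The array was designed on the Nipponbare genome, per the file headers. A lower signal in Pokkali from less RNA and a lower signal from a probe that matches Pokkali poorly therefore cannot be told apart. All arrays lay on 1 slide, with Nipponbare in 1 row and Pokkali in the other, so that row and line cannot be told apart either. Levels are log2 signals relative to the 75th percentile of the array, and a difference is Pokkali minus Nipponbare on that scale. Levels of different probes are not comparable. Loci whose limma p, adjusted by Benjamini-Hochberg over 45334 loci, was under 0.05 are said to pass, and n = 2 arrays per line in every value below. Between 81.2% and 85.5% of the spots of a 0 h array were well above background. The 0 h replicates lay further apart than those at 8 h: the SD over loci between replicates was 0.440 in Nipponbare and 0.444 in Pokkali, against 0.313 and 0.318 at 8 h. Replicates 2 and 1 differed in a similar way in both lines at 0 h (r = 0.536 over loci, which are not independent). The main fit holds no replicate term. Summary counts are therefore also given without each replicate and with a term for the replicate, called a replicate block.

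At 0 h 7633 of 45334 loci (16.8%) differed between the lines. Of these, 3051 (6.73% of all loci) were higher and 4582 (10.1%) were lower in Pokkali. Folds are summarised for the 5670 of them that were well above background on all 4 arrays. For dim genes among these the fold can depend on the background correction, as given below for TRAB1 and RID1. The median fold of the 5670 loci was 2.4, at 2.25 for the 2542 higher and 2.62 for the 3128 lower (55.2%). Of these loci 3898 differed at least 2-fold, 1299 at least 4-fold and 222 at least 16-fold, and of the last 47 were higher and 175 lower. The split was 60.0% lower with the 75th percentile as the scale. It was 75.9% with no scaling, 54.6% with quantile normalization and 50.2% with a normexp background correction. The median difference over all loci was 0.08, and without scaling it was -0.14. The count of loci that passed was 4927 without replicate 2 of both lines and 5616 without replicate 1 of both lines. With the 0 h arrays alone in the fit it was 4162. It was 8500 with 1 replicate block over both times and 11021 with a replicate block within each time. The 2 groups of arrays did not overlap at 54.9% of all loci (Pokkali above at 30.8%, below at 24.1%), so a lack of overlap by itself marked no particular locus.

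**Figure D1:**
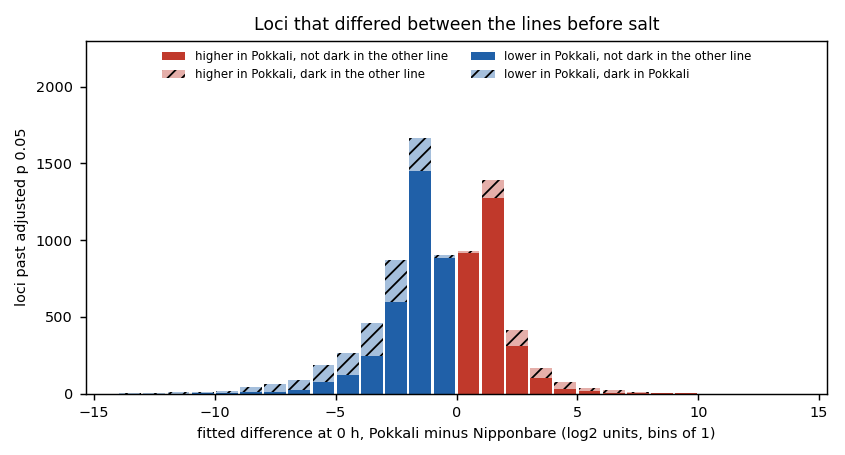
Number of loci past an adjusted p of 0.05 at 0 h by fitted difference, Pokkali minus Nipponbare, in bins of 1 log2 unit. Hatched parts are loci not well above background on either array of 1 line, placed at fitted differences although only a bound holds for them; they make up most of the far left, where loci were lower in Pokkali.

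Many of the larger differences involved loci that lit up in 1 line only. A locus is called dark in a line here when none of its spots was well above background on either 0 h array. Of 52795 loci on the array 6408 were dark in both lines, 2482 in Pokkali only and 1067 in Nipponbare only. Among those, 1475 dark in Pokkali were bright on both Nipponbare arrays, and 756 of these were also dark in Pokkali and seen in Nipponbare at 8 h. In the other direction 433 were bright on both Pokkali arrays, and 263 of these were also dark in Nipponbare and seen in Pokkali at 8 h. A dark locus has only a bound, taken against the lowest signal that counted as well above background on the same array. Where the locus's own value was higher, that value was used instead. Some dark loci read above that lowest signal, so the bound is nominal. For dark loci 'at least' means by this rule and is not a guaranteed minimum. With such a bound 1121 loci passed as lower in Pokkali, by a median of at least 3.94-fold, and 338 as higher, by a median of at least 3.02-fold. A bound of at least 10-fold was reached by 322 and by 51 loci. Such a locus could enter the fit through its bright line alone. An adjusted p printed beside a bound belongs to the fitted difference, not to the bound.

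The extremes were unnamed loci. LOC_Os01g58035 on chromosome 1 read 5.43 and 5.54 in Nipponbare and -7.89 and -8.17 in Pokkali, where it was dark. It was at least 2653-fold lower (adjusted p = 3.09e-06). LOC_Os02g24636 on chromosome 2 read 5.46 and 5.48 against -6.32 and -6.92, at least 2622-fold lower. Both read over 11 log2 units lower on each Pokkali array than on either Nipponbare array. In the other direction LOC_Os06g24990 read -5.98 and -7.46 in Nipponbare, where it was dark, and 2.43 and 1.55 in Pokkali, at least 271-fold higher (adjusted p = 0.000156). LOC_Os11g15370 was at least 99.7-fold higher (adjusted p = 0.000472). At 8 h each was dark in the same line again. LOC_Os01g58035 and LOC_Os02g24636 were then at least 2537-fold and 2426-fold lower, and LOC_Os06g24990 and LOC_Os11g15370 at least 2701-fold and 6.29-fold higher. Among loci seen on all 4 arrays, the largest rises were LOC_Os12g29605 (9.28, SE 2.09, adjusted p = 0.0285) and LOC_Os11g46860 (9.14, SE 0.51, adjusted p = 9.86e-05). The largest falls were LOC_Os06g38210 (-10.29, SE 0.21, adjusted p = 3.37e-06) and LOC_Os08g13280 (-8.72, SE 0.56, adjusted p = 0.000177). LOC_Os12g29605 no longer passed without any one of the 4 arrays at 0 h (adjusted p = 0.0734 to 0.113) or without either Pokkali array at 8 h (0.0591), and in all the call was lost in 8 of 20 alternatives.

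Gene lists were then followed by function, 19 in all with 234 distinct loci, of which 229 were on the array and 224 were measured. The lists and their members were chosen with earlier results of these data known, so the share of a list only describes it. In these lists 40 genes passed (17.9%), 19 higher and 21 lower in Pokkali, a share close to the 16.8% of all loci. No list's count was tested against that share. With only the 0 h arrays in the fit, 15 of these calls were lost (adjusted p = 0.0604 to 0.128): ASR1, NCED5, TRAB1, RID1, MADS50, PHYA, PRR1, GW2, DRO1, RGA5, KSL10, LHCB1.2, HMA3, NIR and GA2OX3. Other losses are given beside each gene, with the number of alternatives of 21 in which its call was lost. The genes below are named from published locus identifiers. Most had 1 probe.

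**Figure D2:**
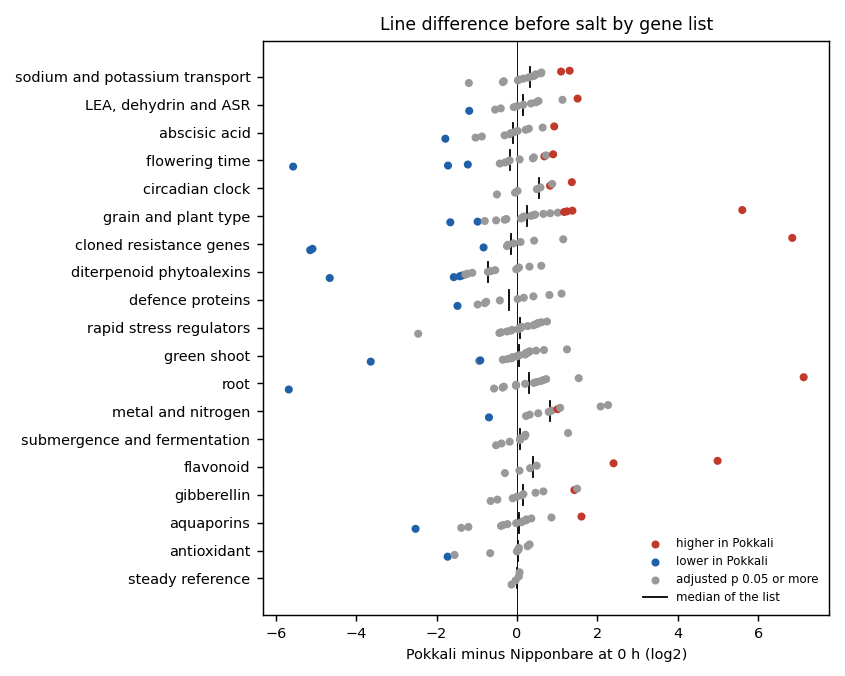
Difference at 0 h, Pokkali minus Nipponbare in log2 units, of each measured gene in 19 lists; colour marks genes past an adjusted p of 0.05 and the black bar is the median of the list. Most genes lie within 1 log2 unit of 0, and the widest points are NRT2.1, PID3, TAC1 and ANS on the right and NRT2.2, HD3A, PIB and PISH on the left.

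Of 15 measured genes of sodium and potassium transport 2 were higher in Pokkali before salt and none was lower (13.3%, near the share of all loci), with a median difference of 0.32 against 0.08 over all loci. The count ran from 1 to 4 over the alternatives, the highest with a replicate block within each time. HKT2;3 (LOC_Os01g34850), a potassium-permeable transporter of the HKT family, read -2.11 and -1.84 in Nipponbare and -0.60 and -0.73 in Pokkali. It was 2.48-fold higher (SE 0.16 log2 units, adjusted p = 0.00293). HKT2;4 (LOC_Os06g48800) read -2.19 and -2.33 against -1.10 and -1.23, 2.14-fold higher (SE 0.23, adjusted p = 0.0227). In both genes the 2 Pokkali arrays lay above both Nipponbare arrays, as at 30.8% of all loci. At 8 h the genes were again higher, by 2.28 and 1.35. HKT2;3 and HKT2;4 are close paralogs, and how far their probes cross-hybridise is not known here. HKT2;4 lost its call in 6 alternatives, among them those without any one of the 0 h arrays (adjusted p = 0.0675 to 0.0967).

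The other HKT genes gave wide intervals. HKT1;1 (LOC_Os04g51820), a sodium transporter, read -3.27 and -1.58 in Nipponbare and -2.69 and -1.61 in Pokkali, a difference of 0.28 (95% interval -1.12 to 1.68, adjusted p = 0.806). HKT1;3 (LOC_Os02g07830) differed by 0.42 (-0.92 to 1.75). HKT2;1 (LOC_Os06g48810), which takes up sodium into potassium-starved roots, read -0.32 and -2.91 against -0.96 and -2.98 and differed by -0.35 (-2.61 to 1.90). For HKT1;1 and HKT2;1 the gap between replicates exceeded the gap between lines. HKT1;5 (LOC_Os01g20160) and HKT1;4 (LOC_Os04g51830) were above background on only 1 array of each line at 0 h and on none at 8 h, so they were not tested. SOS1 (LOC_Os12g44360), the plasma membrane exporter of sodium, differed by 0.06 (adjusted p = 0.862). The vacuolar exchanger NHX1 (LOC_Os07g47100) differed by 0.45 (adjusted p = 0.31) and the potassium channel AKT1 (LOC_Os01g45990) by 0.61 (adjusted p = 0.131).

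The Saltol interval, taken here as the identifiers from HKT1;5 to SALT on chromosome 1, held 282 measured loci. Of these 33 passed (11.7%, against 16.8% of all loci), 11 higher and 22 lower in Pokkali. With a replicate block within each time 61 passed in the interval and 11021 over all loci. At 8 h 25 of the 33 passed in the same direction. LOC_Os01g21135 passed the opposite way, with a difference of 2.51 at 0 h and -0.92 at 8 h (adjusted p = 0.0303 by limma). Its change of -3.43 also passed (interaction adjusted p = 0.0283 by limma). This locus was picked out after its values were seen. Of the 22 lower loci 8 were dark in Pokkali. The steepest of them, LOC_Os01g22090, read 0.01 and -0.68 in Nipponbare and -7.92 and -8.20 in Pokkali, at least 46.8-fold lower (adjusted p = 9.77e-05); it was picked out after its values were seen. SALT (LOC_Os01g24710), a mannose-binding lectin that salt induces, read -5.71 and -6.76 against -6.06 and -5.71. It was above background on 1 array of each line, and its difference was 0.35 (95% interval -0.58 to 1.28).

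Among 11 genes of protective proteins, the late embryogenesis abundant, dehydrin and ASR genes, 1 was higher and 1 lower in Pokkali (18.2%, near the share of all loci), with a median difference of 0.16. WSI18 (LOC_Os01g50910), a late embryogenesis abundant protein, read 0.72 and 0.68 in Nipponbare and 2.44 and 1.97 in Pokkali. It was 2.84-fold higher (SE 0.19, adjusted p = 0.0031) and higher again at 8 h (0.77, adjusted p = 0.033). ASR1 (LOC_Os02g33820), a small protein that abscisic acid and ripening induce in other plants, read 1.26 and 1.92 against 0.59 and 0.22. It was 2.28-fold lower (SE 0.28, adjusted p = 0.0326). That call was lost in 8 alternatives: without Nipponbare 0 h replicate 2 (adjusted p = 0.12), either Pokkali 0 h array (0.0564 and 0.132), either Nipponbare 8 h array (0.0657) or replicate 2 of both lines (0.234), with the 0 h arrays alone (0.109) and with a replicate block within each time (0.0558). LEA3 (LOC_Os05g46480) read 0.57 and -1.21 against 0.74 and -0.30, with replicates further apart than lines. The dehydrin DHN1 (LOC_Os02g44870) differed by 0.16 (adjusted p = 0.732).

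In the abscisic acid list of 12 genes 1 was higher and 1 lower (16.7%, against 16.8% of all loci). Neither passed with only the 0 h arrays in the fit (adjusted p = 0.0881 for NCED5 and 0.0611 for TRAB1). NCED5 (LOC_Os12g42280), a 9-cis-epoxycarotenoid dioxygenase of hormone synthesis, read -0.68 and -0.31 in Nipponbare and 0.52 and 0.35 in Pokkali, 1.90-fold higher (SE 0.18, adjusted p = 0.0169). TRAB1 (LOC_Os08g36790), a bZIP factor that acts in abscisic acid responses, read -3.60 and -3.32 against -4.82 and -5.66, 3.44-fold lower (SE 0.32, adjusted p = 0.0128). Both differences recurred at 8 h (0.77 and -1.67). With normexp the 0 h difference of TRAB1 was -0.54 instead of -1.78 log2 units. NCED5 also did not pass without Nipponbare 0 h replicate 1 (0.0753), Pokkali 0 h replicate 1 (0.0736) or replicate 1 of both lines (0.129), 4 alternatives in all. TRAB1 also did not pass without Nipponbare 0 h replicate 2 (0.0635) or replicate 2 of both lines (0.0996) or with normexp (0.0689), again 4 in all. The list's mean was -0.88 and -0.02 on the Nipponbare arrays and -1.04 and -0.24 on those of Pokkali, so replicates differed more than lines.

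The flowering list held 5 of 13 genes that passed (38.5%, against 16.8% of all loci), 2 higher and 3 lower in Pokkali. The count fell to 2 with only the 0 h arrays in the fit or without replicate 1 of both lines, and to 3 without Nipponbare 0 h replicate 2 or either Pokkali 0 h array. HD3A (LOC_Os06g06320), the mobile florigen that induces flowering in short days, read -2.43 and -2.32 in Nipponbare and -7.88 and -8.00 in Pokkali, where it was dark. It was at least 11.4-fold lower (adjusted p = 5.16e-05), and dark in Pokkali at 8 h too, then at least 2.13-fold lower. MADS51 (LOC_Os01g69850), a factor that acts upstream in the short-day pathway, read 1.27 and 1.21 against -0.59 and -0.36, 3.28-fold lower (SE 0.20, adjusted p = 0.00208). RID1 (LOC_Os10g28330), a zinc-finger factor needed for the switch to flowering, was 2.34-fold lower (SE 0.21, adjusted p = 0.0099). With normexp its difference was -0.24 instead of -1.22 log2 units. Its call was lost in 4 alternatives, among them those without Nipponbare 0 h replicate 2 (0.0521) and with normexp (0.229). On the other side MADS50 (LOC_Os03g03070), a flowering promoter, read -1.29 and -0.89 against -0.22 and -0.16, 1.86-fold higher (SE 0.18, adjusted p = 0.0194). The photoreceptor gene PHYA (LOC_Os03g51030) was 1.60-fold higher (SE 0.17, adjusted p = 0.0395). MADS50 was lost in 5 alternatives, among them those without Nipponbare 0 h replicate 1 (0.0805) or either Pokkali 0 h array (0.0627 and 0.0787). PHYA was lost in 14 alternatives, among them those without any one of the 8 arrays (0.0578 to 0.16), with no scaling (0.234) and with quantile normalization (0.057). EHD1 (LOC_Os10g32600) was above background on 1 Nipponbare array only and was not tested.

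In the circadian clock list 2 of 8 genes passed (25%, against 16.8% of all loci), both higher in Pokkali. PRR37 (LOC_Os07g49460), a pseudo-response regulator that also delays flowering in long days, read -0.17 and -0.63 in Nipponbare and 1.0 and 0.92 in Pokkali, 2.57-fold higher (SE 0.20, adjusted p = 0.00578). PRR1 (LOC_Os02g40510), the evening member of the family, was 1.77-fold higher (SE 0.17, adjusted p = 0.0196). Neither passed at 8 h, where the differences were 0.12 and 0.22. The change of the difference did not pass either (adjusted p = 0.181 and 0.442). PRR1 was lost in 7 alternatives, among them those without Nipponbare 0 h replicate 1 (0.0943), either Pokkali 0 h array (0.0809 and 0.0558) and with no scaling (0.0564). PRR73 (LOC_Os03g17570) differed by -0.50 and did not pass (adjusted p = 0.18).

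Of 20 genes of grain shape and plant type 4 were higher and 2 lower in Pokkali (30%, against 16.8% of all loci). TAC1 (LOC_Os09g35980), which widens the angle of tillers, read -4.74 and -4.71 in Nipponbare and 0.60 and 1.17 in Pokkali. It was 48.6-fold higher (SE 0.47, adjusted p = 0.000535), and by 4.82 log2 units at 8 h, when 1 of the Nipponbare arrays was above background. The Pokkali arrays lay over 5 log2 units above those of Nipponbare. GW5 (LOC_Os05g09520), which sets grain width, read 1.1 and 1.19 against -0.46 and -0.58, 3.16-fold lower (SE 0.14, adjusted p = 0.000515). GW2 (LOC_Os02g14720), a ubiquitin ligase that narrows the grain, was 2.26-fold higher (SE 0.26, adjusted p = 0.0262). DRO1 (LOC_Os09g26840), which steepens root growth, was 2.60-fold higher (SE 0.26, adjusted p = 0.015). S5 (LOC_Os06g11010), an aspartic protease of indica-japonica hybrid sterility, was 2.36-fold higher (SE 0.20, adjusted p = 0.00752). BADH2 (LOC_Os08g32870), the aldehyde dehydrogenase whose loss makes fragrant rice, read 3.34 and 3.39 against 2.41 and 2.37, 1.97-fold lower (SE 0.14, adjusted p = 0.00539).

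Calls on 4 of these 6 genes depended on the arrays used. GW2 was lost in 8 alternatives, among them those without either Nipponbare 0 h array (adjusted p = 0.0976 and 0.0896), Pokkali 0 h replicate 1 (0.0641), either Pokkali 8 h array (0.052) and with no scaling (0.055). DRO1 was lost in 4 alternatives, among them those without Nipponbare 0 h replicate 2 (0.068) or Pokkali 0 h replicate 2 (0.0678). BADH2 was lost only without replicate 2 of both lines (0.0634) and S5 only without replicate 1 of both lines (0.0904), among the alternatives run. SD1 (LOC_Os01g66100), the gibberellin 20-oxidase whose loss gave semi-dwarf rice, read 0.20 and 1.12 in Nipponbare and 0.98 and 1.65 in Pokkali. Its difference of 0.66 did not pass (95% interval -0.25 to 1.56, adjusted p = 0.311).

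**Figure D3:**
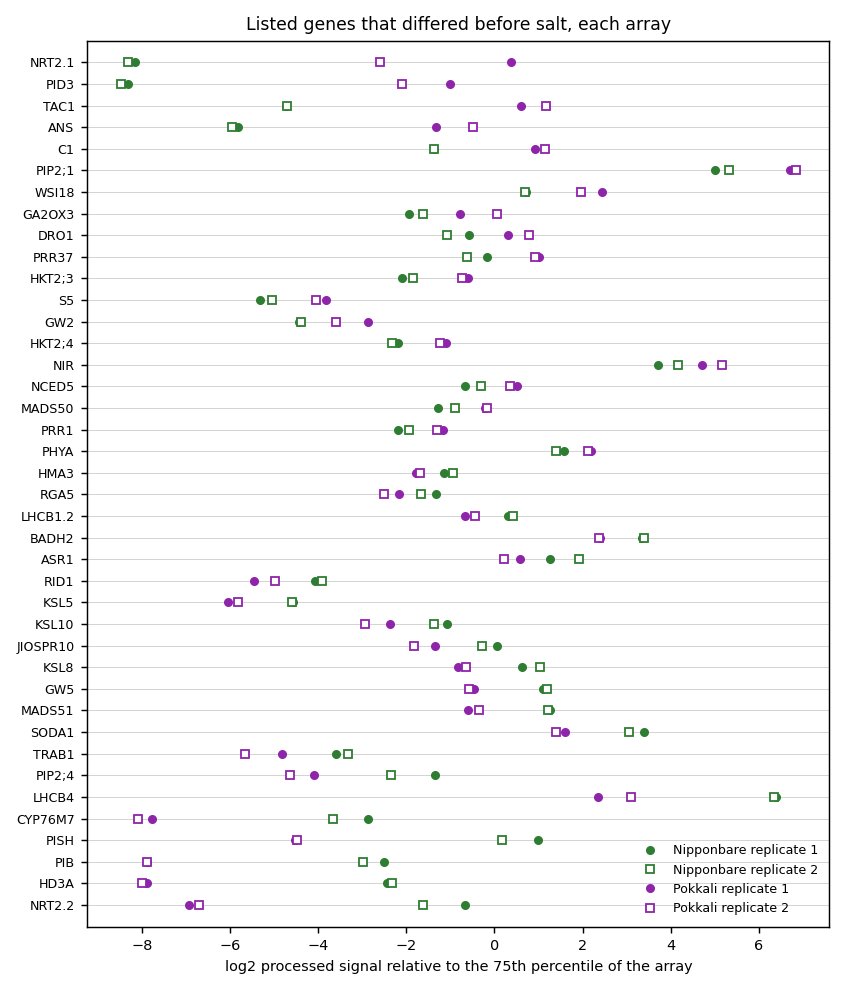
Level of each of the 40 listed genes that passed on each of the 4 arrays at 0 h, as log2 signal relative to the 75th percentile of the array, sorted by difference. Green symbols are Nipponbare and purple symbols Pokkali, circles replicate 1 and squares replicate 2. In every row both arrays of 1 line lie on the same side of both arrays of the other, as at all 7633 loci that passed.

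Of 10 cloned resistance genes 1 was higher and 3 were lower in Pokkali (40%, against 16.8% of all loci). The median difference was -0.15, and 6 of the 10 lay within 1 log2 unit of 0. With only probes above background on all 8 arrays, which leaves out PID3, PIB and PISH, 1 passed. These genes mostly encode receptors that detect blast fungus effectors inside the cell. PID3 (LOC_Os06g22460) read -8.31 and -8.48 in Nipponbare, where it was dark, and -1.0 and -2.10 in Pokkali, at least 23.7-fold higher (adjusted p = 8.84e-05). PIB (LOC_Os02g57310) read -2.51 and -2.99 against -7.89 and -7.90, dark in Pokkali and at least 8.79-fold lower (adjusted p = 2.88e-05). PISH (LOC_Os01g57340) read 0.99 and 0.16 against -4.53 and -4.49, 34.0-fold lower (SE 0.27, adjusted p = 8.41e-05). At 8 h PID3 was dark in Nipponbare again and at least 31.5-fold higher, and PIB was dark in Pokkali again and at least 12.2-fold lower. PISH was then above background on 1 Pokkali array only, with both Pokkali readings below those of Nipponbare. RGA5 (LOC_Os11g11810), which works as a pair with RGA4, was 1.78-fold lower (SE 0.19, adjusted p = 0.0314). RGA4 (LOC_Os11g11790) lay 1.15 higher and did not pass (adjusted p = 0.0742). RGA5 was lost in 9 alternatives, among them those without Nipponbare 0 h replicate 1 (0.135), Pokkali 0 h replicate 2 (0.126) or any 1 of the 8 h arrays (0.0569 to 0.0665). PITA (LOC_Os12g18360) differed by -0.25 (adjusted p = 0.664).

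Diterpenoid phytoalexins are antimicrobial compounds, and many of their enzymes are encoded in gene clusters. Of 15 such genes measured 4 were lower in Pokkali and none higher (26.7%, against 16.8% of all loci, 10.1% being lower). The median difference was -0.72 against 0.08 over all loci. The count was 9 without scaling and 7 with a replicate block within each time, and it was 2 with only probes above background on all 8 arrays or without replicate 2 of both lines. CYP76M7 (LOC_Os02g36110), a cytochrome P450 of phytocassane synthesis, read -2.87 and -3.68 in Nipponbare and -7.77 and -8.09 in Pokkali, where it was dark. It was at least 6.11-fold lower (adjusted p = 0.000233), and at 8 h, dark in Pokkali again, at least 6.91-fold lower. KSL8 (LOC_Os11g28530), the cyclase of oryzalexin S, read 0.64 and 1.03 against -0.82 and -0.65, 2.97-fold lower (SE 0.19, adjusted p = 0.00248). KSL10 (LOC_Os12g30824), the cyclase of other oryzalexins, was 2.68-fold lower (SE 0.25, adjusted p = 0.0115), and KSL5 (LOC_Os02g36220) passed as lower by a fitted 2.56-fold (SE 0.35, adjusted p = 0.0435). KSL5 was above background on only 1 of the Pokkali arrays, so its Pokkali level is partly background. KSL4 (LOC_Os04g10060), the momilactone cyclase, differed by -1.28 and did not pass (adjusted p = 0.0562). KSL10 was lost in 3 alternatives, among them that without Nipponbare 0 h replicate 1 (0.0602). KSL5 was lost in 14 of 20: without any one of the 0 h arrays (0.104 to 0.147), either Nipponbare 8 h array (0.056) or replicate 1 or 2 of both lines (0.267 and 0.2), with normexp (0.492), quantile normalization (0.0671), no filter on dim probes (0.0557) and the trend and robust prior (0.0533), and with both replicate blocks (0.0607 over both times and 0.0818 within each time).

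Of 10 defence protein genes 1 passed (10%, against 16.8% of all loci). JIOSPR10 (LOC_Os03g18850), a jasmonate-inducible protein of the PR10 family, read 0.07 and -0.28 against -1.35 and -1.82, 2.79-fold lower in Pokkali (SE 0.28, adjusted p = 0.0142). It was lost in 4 alternatives, among them those without Nipponbare 0 h replicate 1 (0.0713) or Pokkali 0 h replicate 2 (0.0658). None of 17 rapid stress regulators passed by limma, against 16.8% of all loci, and 2 had an unadjusted p under 0.05. The line differences ran from -2.46 to 0.75, with a median of 0.08. Mean levels of the list were -0.95 and 0.74 on the Nipponbare arrays and -0.76 and 0.54 on those of Pokkali. Of the 17 genes 14 were higher in replicate 2 of both lines. TIFY11A (LOC_Os03g08310), a repressor of jasmonate signalling, read 0.56 and 4.84 in Nipponbare and 0.99 and 4.47 in Pokkali. The replicates thus lay over 3 log2 units apart in each line, while the lines differed by 0.03. The closest to the threshold were NAC10 (LOC_Os11g03300; 0.75, adjusted p = 0.111) and ZFP182 (LOC_Os03g60560; 0.51, adjusted p = 0.113). NAC10 passed without either Nipponbare 8 h array (0.0449).

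Organ markers were measured because the whole seedling holds shoot and root, and because fewer cells of a type and less RNA per cell cannot be told apart in such samples. Of 20 green shoot genes 2 were lower in Pokkali and none higher (10%, against 16.8% of all loci), with a median difference of 0.04. Their summed signal, in multiples of the 75th percentile, was 1999 and 2214 in Nipponbare and 1999.5 and 2406 in Pokkali. LHCB4 (LOC_Os07g37240), the minor antenna protein CP29 of photosystem II, read 6.40 and 6.34 against 2.36 and 3.10, 12.5-fold lower (SE 0.27, adjusted p = 0.000335). The other minor antenna genes, LHCB5 (LOC_Os11g13890) and LHCB6 (LOC_Os04g38410), differed by 0.21 and 0.28 (adjusted p = 0.659 and 0.638). LHCB1.2 (LOC_Os09g17740) was 1.88-fold lower (SE 0.16, adjusted p = 0.0125). It was lost in 5 alternatives, among them those without Nipponbare 0 h replicate 2 (0.063) or Pokkali 0 h replicate 1 (0.0569). The root list had a summed signal of 16.4 and 47.6 in Nipponbare and 31.7 and 64.7 in Pokkali, so replicates differed more than lines. Whether the organ make-up bears on the differences was not tested.

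In the root list 2 of 14 genes passed (14.3%, against 16.8% of all loci). They were neighbours on chromosome 2 that moved in opposite ways. NRT2.1 (LOC_Os02g02170), a high-affinity nitrate transporter, read -8.17 and -8.31 in Nipponbare, where it was dark, and 0.37 and -2.59 in Pokkali. It was at least 32.2-fold higher (adjusted p = 0.00349). NRT2.2 (LOC_Os02g02190) read -0.68 and -1.62 in Nipponbare and -6.94 and -6.71 in Pokkali, where it was dark, at least 26.6-fold lower (adjusted p = 9.77e-05). Each gene was thus above background in 1 line only. At 8 h each was dark in the same line as before, with NRT2.1 at least 3.52-fold higher and NRT2.2 at least 3.16-fold lower. NRT2.1 and NRT2.2 encode nearly identical proteins, so which copy each probe reads in Pokkali is uncertain. Among 10 metal and nitrogen genes 1 was higher and 1 lower (20%, against 16.8% of all loci). Their median difference was 0.83, against 0.08 over all loci, and the range was -0.70 to 2.26. The list's mean was 0.57 and 2.04 on the Nipponbare arrays and 1.75 and 2.55 on those of Pokkali. The nitrite reductase NIR (LOC_Os01g25484) was 2.01-fold higher (SE 0.25, adjusted p = 0.0403). HMA3 (LOC_Os07g12900), which moves cadmium into the vacuole, was 1.62-fold lower (SE 0.16, adjusted p = 0.0313). NIR was lost in 12 alternatives, among them those without either Nipponbare 0 h array (0.162 and 0.0503), Pokkali 0 h replicate 2 (0.156), any 1 of the 8 h arrays (0.0594 to 0.0749) and with no scaling (0.0552). HMA3 was lost in 9 alternatives, among them those without any one of the 0 h arrays (0.0602 to 0.137) or either Nipponbare 8 h array (0.0683).

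Of 6 flavonoid genes 2 passed (33.3%, against 16.8% of all loci), both of them anthocyanin genes and both higher in Pokkali. ANS (LOC_Os01g27490), the anthocyanidin synthase that forms the coloured compounds, read -5.83 and -5.97 in Nipponbare, where it was dark, and -1.32 and -0.49 in Pokkali. By the rule for dark loci it was at least 31.8-fold higher, which equals the fitted value (adjusted p = 0.000144). C1 (LOC_Os06g10350), the MYB factor that switches on anthocyanin genes, read -1.37 on both Nipponbare arrays and 0.92 and 1.15 in Pokkali, 5.28-fold higher (SE 0.21, adjusted p = 0.000716). Earlier steps did not pass: the chalcone synthase CHS1 (LOC_Os11g32650) differed by 0.06 and the dihydroflavonol reductase DFR (LOC_Os01g44260) by 0.33 (adjusted p = 0.905 and 0.234). At 8 h C1 was still higher by 2.14 (adjusted p = 0.00106). ANS then read -4.44 and -4.69 in Nipponbare and -4.01 and -3.59 in Pokkali, a difference of 0.76 (adjusted p = 0.126).

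Of 14 aquaporins 1 was higher and 1 lower (14.3%, against 16.8% of all loci), and both belong to the plasma membrane group on chromosome 7. PIP2;1 (LOC_Os07g26690), a water channel, read 5.0 and 5.33 in Nipponbare and 6.70 and 6.84 in Pokkali, 3.04-fold higher (SE 0.16, adjusted p = 0.00125). PIP2;4 (LOC_Os07g26630) read -1.35 and -2.34 against -4.09 and -4.65, 5.75-fold lower (SE 0.40, adjusted p = 0.00758). These directions recurred at 8 h (2.85 and -1.69), when PIP2;4 was above background on 1 Pokkali array. Among 10 gibberellin genes 1 passed (10%, against 16.8% of all loci). GA2OX3 (LOC_Os01g55240), which inactivates the hormone, was 2.69-fold higher (SE 0.34, adjusted p = 0.0339). It was lost in 8 alternatives, among them those without either Nipponbare 0 h array (0.136 and 0.0769), Pokkali 0 h replicate 2 (0.115) or either Pokkali 8 h array (0.0576). Among 8 antioxidant genes 1 passed (12.5%, against 16.8% of all loci). SODA1 (LOC_Os05g25850), a manganese superoxide dismutase, read 3.40 and 3.05 against 1.61 and 1.39, 3.31-fold lower (SE 0.18, adjusted p = 0.00125). None of 8 submergence and fermentation genes passed by limma, against 16.8% of all loci, and 1 had an unadjusted p under 0.05. AMY3D (LOC_Os08g36910), an alpha-amylase, came closest (1.27, adjusted p = 0.16), and ADH1 (LOC_Os11g10480) differed by -0.39 (adjusted p = 0.426). The 4 reference genes differed by -0.14 to 0.06, none with an unadjusted p under 0.05 by limma, among them UBQ10 (LOC_Os02g06640) at -0.14 and EF1A (LOC_Os03g08010) at 0.06.

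The arrays taken after 8 h of salt gave an independent set of hybridisations for the same line difference. They share the probes, the slide layout and the pooled spread with the 0 h arrays, so a poor match of a probe to Pokkali would recur on them. At 8 h 9974 loci (22%) passed, of which 4377 had not passed at 0 h. Of the 7633 loci that differed at 0 h, 7336 (96.1%) lay the same way at 8 h and 5556 (72.8%) passed the same way, while 41 passed the opposite way. Among the 5391 of them above background on all 8 arrays, the share that passed again was 57.0% under 2-fold, 74.1% at 2- to 4-fold, 89.4% at 4- to 16-fold and 95.7% at 16-fold and over. Leaving out either Nipponbare 8 h array lowered the 5556 to 3442 or 3427. The line difference changed between 0 h and 8 h at 161 loci (0.355%), of which 106 were among those that differed at 0 h, 27 higher and 79 lower in Pokkali. That count was 0 without either Pokkali 8 h array, 3 or 4 without a Nipponbare 8 h array, 27 without replicate 2 of either line at 0 h and 77 without Nipponbare 0 h replicate 1.

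**Figure D4:**
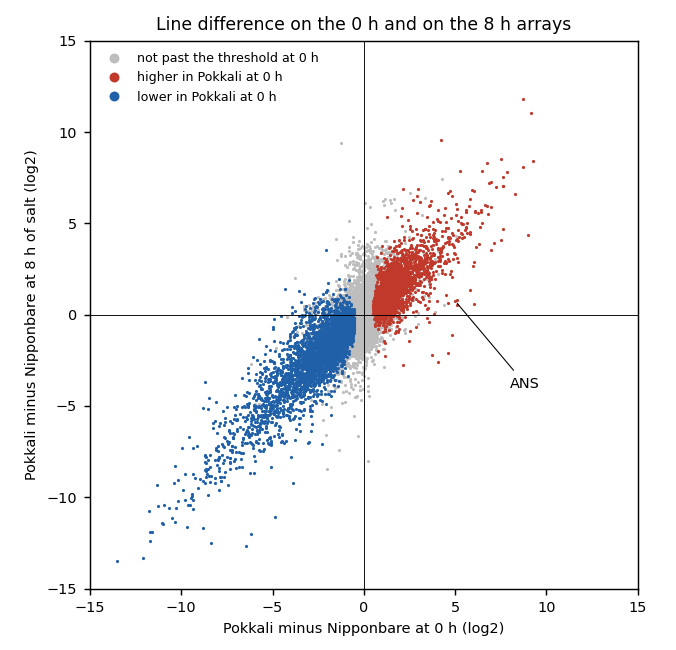
Pokkali minus Nipponbare in log2 units at 0 h (x axis) and after 8 h of salt (y axis) for 45334 loci, coloured by the call at 0 h. Of the coloured loci 96.1% lie on the same side of 0 on both axes; the fitted value of ANS, dark in Nipponbare at 0 h, falls from 4.99 to 0.76.

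Loci that differed were spread over the whole genome. By chromosome the share that passed ran from 13.6% on chromosome 3 to 21.0% on chromosome 11, where 7.10% were higher and 13.9% lower in Pokkali. In 901 windows of 50 neighbouring loci, in the order of their identifiers, the median share was 16% and the range 0% to 42%. Only 2 windows, both on chromosome 4, held no such locus. At least 17 of the 50 loci differed in 12 windows, and 3 of these adjoined at the end of chromosome 11 between LOC_Os11g44960 and LOC_Os11g47420. Within that stretch the first window had 13 higher and 4 lower loci, the next 2 higher and 17 lower, and the last 6 higher and 14 lower. The densest window, LOC_Os06g38260 to LOC_Os06g38980, had 21 loci, 18 of them lower in Pokkali and 6 bright in Nipponbare but dark in Pokkali. Runs of neighbours that all differed one way were short, at most 5 lower and at most 4 higher in a row.

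**Figure D5:**
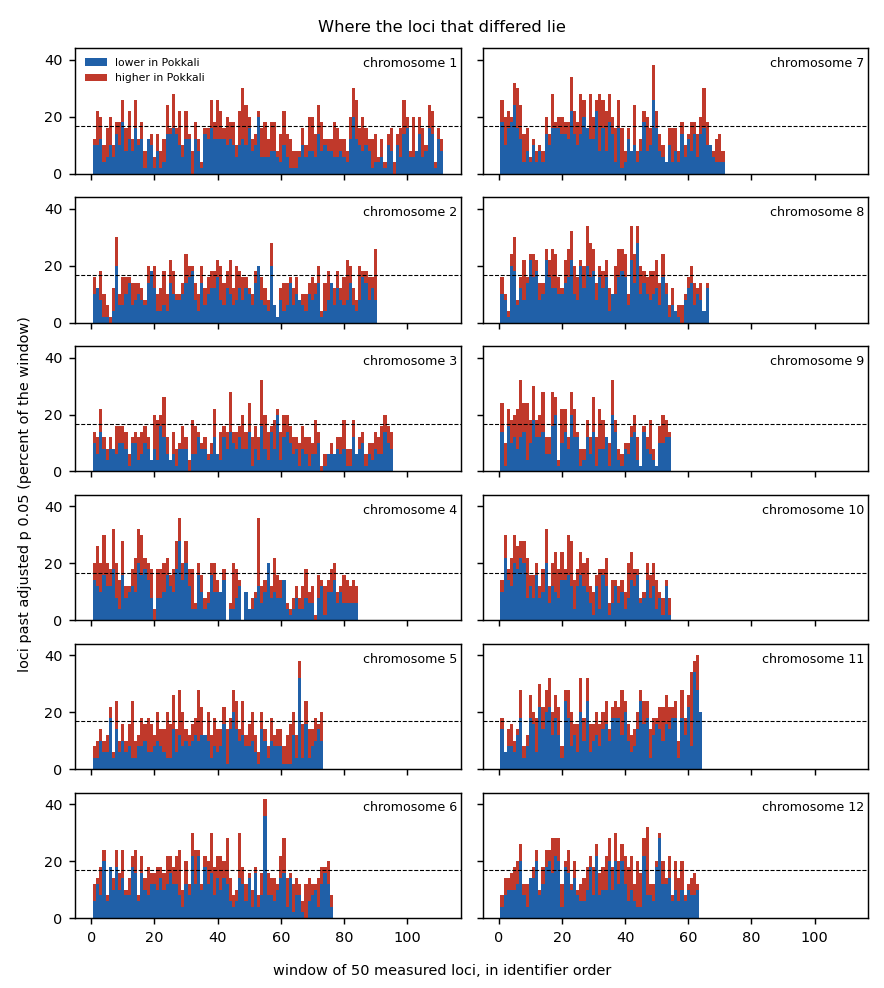
Share of loci past an adjusted p of 0.05 at 0 h in windows of 50 measured loci in identifier order, 1 panel per chromosome, blue for loci lower and red for loci higher in Pokkali. The dashed line is the 16.8% of all loci, and the tallest bars stand on chromosome 6 and at the end of chromosome 11.

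The share of loci that passed was also counted by brightness, and the probes of a locus were compared with each other. With loci cut into 4 equal classes by level, 22.8% of the dimmest class passed and 9.86% of the brightest. Level here is the mean over both lines at 0 h. A locus dark in 1 line thus falls into a dimmer class through its own difference. In the dimmest class 15.4% were lower and 7.38% higher in Pokkali, and in the brightest 5.23% and 4.63%. For the 2138 loci with at least 2 kept probes, the probes of a locus spanned a median of 0.098 log2 units in the line difference at 0 h and 0.093 in the salt change of either line. Of 294 such loci that passed, 279 (94.9%) had all probes on the same side of 0. Over these 294 the probes of a locus spanned a wider median of 0.187 log2 units in the line difference at 0 h. In 41 (13.9%) 1 probe exceeded a 2-fold difference while another lay under 0.5 log2 units or on the other side. The remaining 7339 loci that passed rested on 1 kept probe, which allowed no such check. The part of brightness and of probe match in the differences was not tested.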

How the data were processed

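RNA of whole seedlings was labelled with Cy3 and hybridised to one-colour arrays of a custom design, per the labels. The authors' scanner tables come from Feature Extraction 10.7.1.1, per the file headers. The values used are the deposited processed signal intensity, background-subtracted within each array and not scaled between arrays; the deposited series table held 100% equal values. The deposited flags (control, outlier, well above background) are 0 or 1 per spot. The genome build of the design is IRGSP5, per the file headers. A single slide and a single scan held all 8 arrays, so no slide block could be fitted.

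Control spots (1319 on each array) and outlier-flagged spots were dropped. Log2 intensity from the deposited tables was shifted to the 75th percentile of each array, spots were averaged per probe and probes per locus. A probe stayed in if both arrays of 1 or more of the 4 groups had it well above background (47473 of 55078, 45334 loci); for probes printed repeatedly a share of spots above 0.5 was asked for. limma 3.58.1 in R 4.3.3 fitted 4 group means to 8 arrays (lmFit, eBayes, two-sided, 4 residual degrees of freedom), and it was tested on simulated data. With 2 arrays against 2 no exact permutation p can go below 0.333, so no single-gene permutation test was made. Confidence intervals are at 95%, from the same fit. The number of arrays limits the precision.

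Named genes are the members of 19 lists that passed (or the 2 with the smallest p), every measured HKT gene, SALT and SD1, and the largest differences among unnamed loci (2 per direction for loci seen on all 4 arrays and 2 per direction for dark loci); a few further list members are given as examples. The members and lists were chosen with earlier results of these data known. The arrays give transcript model identifiers only, so gene names rest on published locus identifiers from general knowledge. Of 234 names 143 were found in a RefSeq gene table, 137 of them on the chromosome of the identifier. CYP76M7 is among those that were not. No probe sequence was used here. Alternatives were other scalings, background corrections, probe filters, moderation, left-out arrays and replicate blocks. Normexp used the median spot signal, since a mean signal column was not used here. One Nipponbare 8 h sample is replicate 2 by title and 1 by description; the title was used. A gene of the lists is not reported here by name.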

Additional observations from a re-analysis of the deposited data

Results flagged for a closer look

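Among the genes named by the rules above, ANS, the anthocyanidin synthase gene, was the one whose line difference changed between 0 h and 8 h by a test of that change. ANS was dark in Nipponbare at 0 h, with readings above the lowest signal that counted as well above background. By the rule for dark loci the bound there equals the fitted difference of 4.99 log2 units, which rests on background readings. The difference was 0.76 at 8 h, and the fitted change was -4.22 (interaction adjusted p = 0.0334 by limma). This change rests on the same background readings, and with normexp it was -2.29. Both Pokkali arrays read lower at 8 h (-4.01 and -3.59) than at 0 h (-1.32 and -0.49), and both Nipponbare arrays read higher (-4.44 and -4.69 against -5.83 and -5.97, where the gene was dark). The adjusted p of this change ran from 0.0199 to 0.145 over the alternatives. It passed in 6 of 19 alternatives. It missed the threshold without either Nipponbare 0 h array (0.0628 and 0.0953), without any 1 of the 8 h arrays (0.0986 to 0.145), without Pokkali 0 h replicate 2 (0.0565), without replicate 1 or replicate 2 of both lines (0.0517 and 0.12), with either replicate block (0.0665 over both times and 0.0878 within each time), with normexp (0.0581) and with no filter on dim probes (0.0512). No explanation was tested.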

How the results depend on the processing

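Of 48 named loci that passed at 0 h, 27 passed in each of the 21 alternatives that measured them and none changed direction. The settings that lost the most named calls were those without replicate 1 or replicate 2 of both lines (16 each of the 48) and with the 0 h arrays alone in the fit (15), where the spread rests on fewer arrays. Loci that passed numbered 4162 with the 0 h arrays alone (1347 higher, 2815 lower), 4927 without replicate 2 of both lines (1674 higher) and 5301 to 6463 with 1 array left out (1780 to 2452 higher). The higher loci numbered 1793 with no scaling. With 1 array left out the 8 h count ran from 5025 to 9974 and the 0 h calls that passed again from 3427 to 4638. Loci whose line difference changed numbered 52 with no filter on dim probes, 49 with probes above background on all 8 arrays, 105 with the trend and robust prior, 25 and 1 without replicate 1 or 2 of both lines and 0 to 175 with 1 array left out.

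The replicate numbers pair the arrays by number only: replicate 2 minus 1 correlated between lines with r = 0.536 at 0 h and 0.218 at 8 h. The main fit ignores this pairing, so a replicate difference that both lines share stays in its spread. With 1 replicate block over both times 8500 loci passed and 30 changed between times. With a replicate block within each time 11021 passed (5089 higher), 1 changed, and the Saltol interval gave 61; ZFP182 (0.0385), AMY3D (0.018) and SD1 (0.0457) then also passed, while ASR1 (0.0558) and KSL5 (0.0818) did not; KSL5 also missed it with the block over both times (0.0607).

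Directions turned for 7 named genes, none of which passed in any of the 21 alternatives. EF1A turned with no scaling (adjusted p = 0.799), with quantile normalization (0.908) and without replicate 2 of both lines (0.97), and HKT1;1 without replicate 1 of both lines (0.95). SALT turned without replicate 2 of both lines (0.625). With 1 array left out adjusted p ran from 0.495 to 0.902 for EF1A, 0.187 to 0.85 for HKT1;1, 0.292 to 0.96 for HKT1;3, 0.258 to 0.87 for HKT2;1, 0.169 to 0.869 for SALT, 0.0903 to 0.983 for ADH1 and 0.521 to 0.992 for UBQ10. The cause was not tested.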
